A study of Mus musculus with 2 samples.

Results

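The Ms4a genes encode small membrane proteins and lie side by side on mouse chromosome 19. Members were chosen by name: 10 Ms4a genes used as markers of macrophage subsets, B cells and mast cells, of 24421 genes in the table of counts. A count was present for 9 of them, and the expression of Ms4a4a was not analysed here. The tissue was back skin, all layers together, from wild type C57BL6/J mice, described in the study's methods as female, 8 weeks old and in telogen, the resting phase of the hair cycle. One library, Tension, came from skin stretched for 5 days by a device glued to the back, at 33% strain, which the methods describe as an initial strain that was increased daily, and 1 library, Control, came from skin kept unstretched over the same days. The sources used here do not say how many mice went into each library. With 1 library per condition there was no test between conditions, no p-value and no replicate check, and the 95% intervals cover counting error only. In whole skin, fewer cells of a type and less RNA per cell cannot be told apart.

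MS4A proteins cross the membrane with 4 segments and act mostly beside other receptors, as partners that alter their signalling or their place at the cell surface. The best known are CD20, the B cell antigen encoded by Ms4a1, and the beta subunit of the high-affinity IgE receptor of mast cells and basophils, encoded by Ms4a2. Ms4a4a, Ms4a6b, Ms4a6c, Ms4a6d, Ms4a7 and Ms4a8a are known mainly from macrophages and monocytes, Ms4a4c from monocytes among other leukocytes, and Ms4a4b from T cells.

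The libraries held 14152379 counts in Control and 11648655 in Tension, so 1 read was worth 0.0707 and 0.0858 CPM, the count scaled to a common library size. A gene was taken as measured when its count was above 3 in Control, in Tension or in both, which held for 16255 genes, and the median log2 fold change of CPM over those genes, Tension over Control, was -0.12. Of the 9 members, 8 were measured and 1, Ms4a1, had 0 counts in both libraries. Ms4a4b passed this limit only through the Tension library.

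The promoters are shown first, since some members share short sequences just before their starts. RefSeq windows of 250 bases before and 50 bases after the annotated start (mm10, GRCm38.p6) were available for 8 members, Ms4a4a included, and Ms4a7 had 2 of them, which gave 9 windows. The 100 bases before the start are printed 5′ to 3′ on the strand of the gene for Ms4a6b, Ms4a6c and Ms4a7, which held the letters GGAAGT, the core bound by Ets family factors, and for Ms4a2 and Ms4a8a, which did not hold them. Capitals mark that core, written as ACTTCC where it lay on the other strand.
Ms4a6b, chr19:11518459-11518558, plus strand: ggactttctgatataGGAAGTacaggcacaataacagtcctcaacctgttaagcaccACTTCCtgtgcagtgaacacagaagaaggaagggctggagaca
Ms4a6c, chr19:11469268-11469367, plus strand: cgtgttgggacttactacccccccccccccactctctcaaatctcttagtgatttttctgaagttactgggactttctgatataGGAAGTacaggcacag
Ms4a7, chr19:11336147-11336246, minus strand: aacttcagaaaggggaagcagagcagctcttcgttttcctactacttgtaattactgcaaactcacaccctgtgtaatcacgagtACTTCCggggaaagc
Ms4a2, chr19:11623720-11623819, minus strand: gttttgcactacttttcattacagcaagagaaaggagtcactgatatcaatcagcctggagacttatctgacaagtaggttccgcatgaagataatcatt
Ms4a8a, chr19:11081104-11081203, minus strand: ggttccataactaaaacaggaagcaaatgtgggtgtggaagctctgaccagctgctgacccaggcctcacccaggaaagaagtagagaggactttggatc

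GGAAGT was found on either strand in 5 of the 9 members' windows, and in 23.8% of the 32851 windows of 27025 genes. Its place was similar in 4 of them. In Ms4a4b, Ms4a4c, Ms4a6c and the first start of Ms4a7 the core lay within the 30 bases before the start, at positions -19, -15, -16 and -15, and 3.58% of all windows held it there. This distance was chosen after the positions were seen. In Ms4a6b the core lay at -85 and, on the other strand, at -43. The core was not particular to members that differed between the libraries: it was also at -24 in Gm8369 (0 and 1 counts), at -55 in Ms4a3 (0 counts in both) and, on the other strand, at -5 in Ms4a4d, neighbours in the cluster. The longer motif GAGGAAGT, which contains GGAAGT and is preferred by PU.1, was in 0 of 9 windows and in 3.20% of all. An IRF motif, AANNGAAA, was in 4 of 9 windows (Ms4a2, Ms4a4b, Ms4a6c and Ms4a7) and in 23.9% of all. An AP-1 motif, TGANTCA, was in 3 (Ms4a4b, Ms4a7 and Ms4a8a) and in 7.81% of all. A C/EBP motif, TTGCNNAA, was in 0 (10.8% of all), and a MAF motif, TGCTGAC, was in 1, Ms4a8a (4.67% of all). All motifs were searched on both strands, and a match describes letters and not a bound site.

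Neighbouring members also had similar windows, which are therefore not independent of each other. Ms4a6b and Ms4a6c shared an unbroken run of 48 bases around the core, printed here with the core in capitals, and it ended 71 bases before the Ms4a6b start and 2 bases before the Ms4a6c start.
Ms4a6b and Ms4a6c: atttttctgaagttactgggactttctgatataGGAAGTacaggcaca
Over the whole 300 bases, the Ms4a4b and Ms4a4c windows had 74.3% identical bases and those of Ms4a6b and Ms4a6c 64.0%, against 46.3% to 53.0% in all other pairs of members.

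The macrophage members Ms4a6b, Ms4a6c, Ms4a6d and Ms4a7 had the most counts of the members and all were higher in Tension. Ms4a6c had 180 counts (12.7 CPM) in Control and 349 counts (29.96 CPM) in Tension. Ms4a6d had 131 counts (9.26 CPM) in Control and 340 counts (29.2 CPM) in Tension. Ms4a6b had 119 counts (8.41 CPM) in Control and 273 counts (23.4 CPM) in Tension. The 3 Ms4a6 genes were thus each above 8 CPM in Control and above 23 CPM in Tension. Ms4a7 had 110 counts (7.77 CPM) in Control and 297 counts (25.5 CPM) in Tension. The fold changes of CPM were 3.28 for Ms4a7 (log2 1.71, 95% interval 1.39 to 2.04), 3.15 for Ms4a6d (1.66, 1.36 to 1.96), 2.79 for Ms4a6b (1.48, 1.16 to 1.80) and 2.36 for Ms4a6c (1.24, 0.97 to 1.5). Among all measured genes these values stood between the percentiles 95.7, for Ms4a6c, and 98.1, for Ms4a7.

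**Figure D1:**
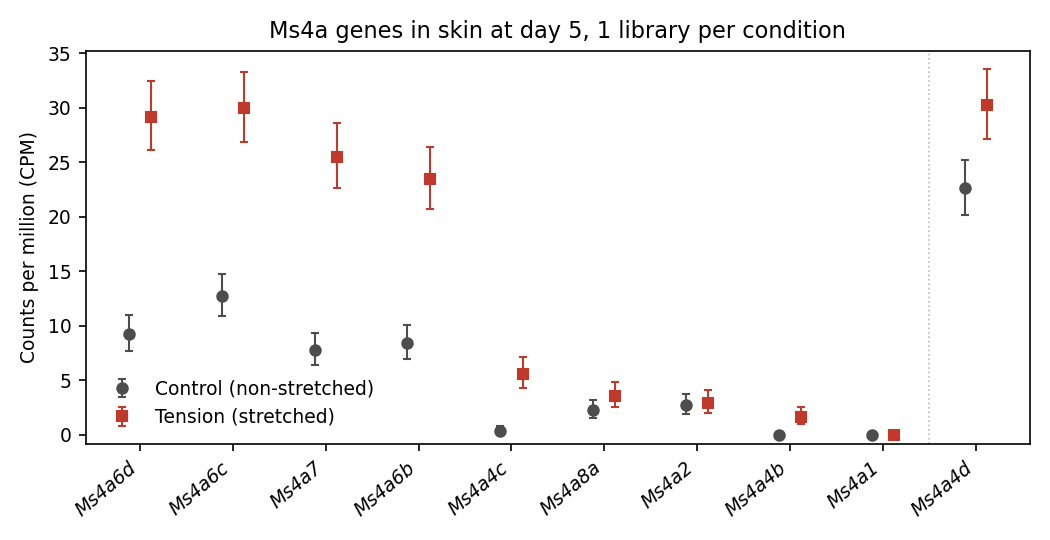
CPM of the Ms4a members in the table and of Ms4a4d, with 1 point for the Control library and 1 for the Tension library and bars for the exact 95% Poisson interval. Ms4a6c, Ms4a6d, Ms4a7 and Ms4a6b sat between 7.77 and 12.7 CPM in Control and between 23.4 and 29.96 CPM in Tension, and the intervals of Ms4a2 and Ms4a8a overlapped between libraries.

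Ms4a4c and Ms4a4b, with the fewest counts in Control among the measured members, had the highest ratios. Ms4a4c had 5 counts (0.353 CPM) in Control and 65 counts (5.58 CPM) in Tension, a 15.8-fold difference with a wide interval of 6.43 to 50.3 (log2 3.98, 2.69 to 5.65). Ms4a4b, a regulator of T cell proliferation, had 0 counts in Control, which allows up to 0.212 CPM at 3 counts, and 19 counts (1.63 CPM) in Tension. Its exact counting interval started at 5.67-fold higher in Tension, and the ratio set against 3 counts in Control was 7.69. Ms4a4c stood at the percentile 99.9 of the measured genes. The size of neither difference is fixed at this depth.

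For the remaining members the interval included 0 or no count was found. Ms4a8a, a macrophage gene also found in some epithelia, had 32 counts (2.26 CPM) in Control and 42 counts (3.61 CPM) in Tension, with a log2 fold change of 0.67 whose interval, -0.02 to 1.38, included 0. Ms4a2, the IgE receptor subunit, had 39 counts (2.76 CPM) in Control and 34 counts (2.92 CPM) in Tension, a log2 fold change of 0.08 (-0.62 to 0.78). Counting error thus covered the difference of both genes, although every other scaling tried put the interval of Ms4a8a wholly above 0. Ms4a1, the CD20 gene at chr19:11249675-11266241, was at 0 in both libraries, which allows up to 0.212 CPM in Control and 0.258 CPM in Tension at 3 counts.

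The 9 members in the table summed to 616 counts (43.5 CPM) in Control and 1419 counts (121.8 CPM) in Tension. Of the 7 members above 3 counts in both libraries, 5 had intervals wholly above 0 (Ms4a4c, Ms4a6b, Ms4a6c, Ms4a6d and Ms4a7), 0 wholly below and 2 included 0, where 18.1% of all measured genes had intervals wholly above 0. The same 5 were at least 2-fold higher by CPM, as were 6.32% of all measured genes. Ms4a4b, measured only through Tension, was bound to be higher there and is left out of these counts. Both percentages include genes above 3 counts in only 1 library, a wider limit than for the 7 members. The median log2 fold change was 1.57 over the 8 and 1.48 over the 7 that were above 3 counts in both libraries, beside -0.12 for all measured genes.

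**Figure D2:**
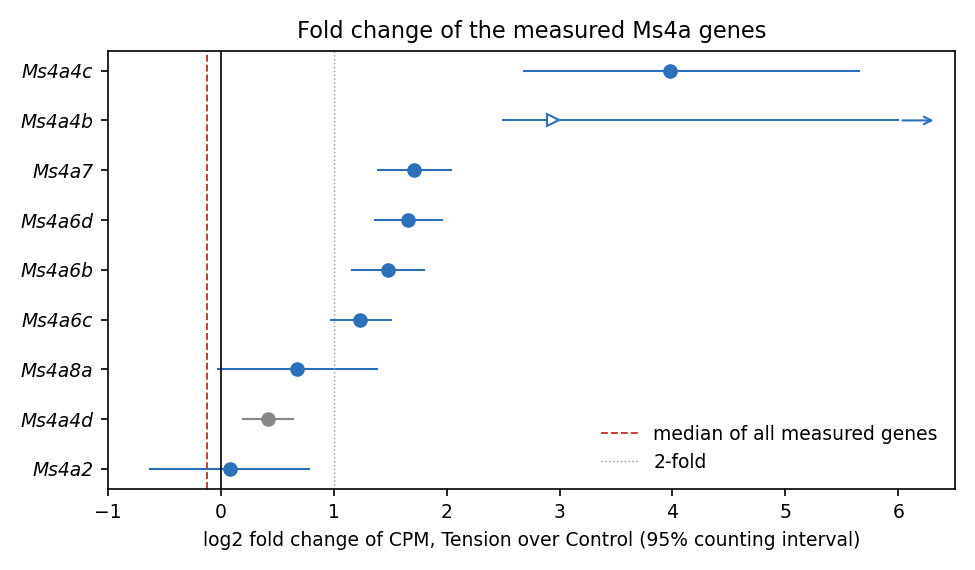
Log2 fold change of CPM, Tension over Control, for each measured Ms4a gene, with exact 95% counting intervals. The open triangle of Ms4a4b is its value set against 3 counts in Control, the dashed line is the median of all measured genes (-0.12) and the dotted line marks 2-fold. Ms4a4c lay farthest right at 3.98 with the widest closed interval, and only the intervals of Ms4a2 and Ms4a8a crossed 0.

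The study called a gene when the product of the values in both libraries (EV) was above 10 and the fold change was at least 2. With FPKM, which also divides by exon length, computed from the counts and 1 added to each, 4 members passed the EV limit and all 4 were called higher in Tension: Ms4a6b, Ms4a6c, Ms4a6d and Ms4a7. The EV includes the Tension value, and Ms4a6b and Ms4a7 would not have passed with their Control level in both libraries, so the number called of those that passed is a description only. Without the added 1, which the study does not state, Ms4a6b and Ms4a7 fell just short of the EV limit and 2 members, Ms4a6c and Ms4a6d, were called. Of all 10911 genes that passed the EV limit, 2.61% were called higher. Ms4a4c had an EV of 5.03 and so was not eligible despite its fold change. Ms4a4b, Ms4a2 and Ms4a8a did not pass the EV limit either.

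To compare levels of different genes, FPKM was used, which accounts for length. Ms4a4d, a further Ms4a gene between Ms4a6b and Ms4a6d that was not among the members, had the highest level of the family in Control, 14.9 FPKM. It was followed by Ms4a6c at 6.20 FPKM and Ms4a6d at 5.34 FPKM, which did not differ beyond counting error. Ms4a6b (1.87 FPKM), Ms4a7 (1.75 FPKM), Ms4a8a (1.26 FPKM) and Ms4a2 (0.980 FPKM) came next, and no neighbours among these 4 differed. Ms4a4c was lowest of the detected genes at 0.202 FPKM. In Tension, Ms4a4d was at 19.97 FPKM, only 1.19 times Ms4a6d at 16.8 FPKM (ratio interval 1.02 to 1.38), where in Control it was 2.41 times the next gene. Ms4a6c stood at 14.6 FPKM, again not apart from Ms4a6d. Ms4a7 at 5.73 FPKM and Ms4a6b at 5.23 FPKM did not differ, and Ms4a4c, at 3.19 FPKM, now stood above Ms4a8a at 2.01 FPKM and Ms4a2 at 1.04 FPKM.

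Ms4a4d had 320 counts (22.6 CPM) in Control and 352 counts (30.2 CPM) in Tension. Its log2 fold change of 0.42 (0.20 to 0.64) was above 0 but smaller than those of 5 members by direct comparison. The difference from Ms4a4d, member minus Ms4a4d in log2 fold change, was 3.56 for Ms4a4c (2.24 to 5.25), 1.30 for Ms4a7 (0.90 to 1.69), 1.24 for Ms4a6d (0.86 to 1.61), 1.06 for Ms4a6b (0.67 to 1.45) and 0.82 for Ms4a6c (0.47 to 1.17). Intervals included 0 for Ms4a8a (0.25, -0.48 to 1.0) and Ms4a2 (-0.34, -1.08 to 0.40). Shares of the family's counts are not per length and compare each gene only with itself between the libraries. As a share of all 939 family counts in Control and 1771 in Tension, Ms4a4d was 34.1% (Wilson 95% interval 31.1 to 37.2) and then 19.9% (18.1 to 21.8). The share of Ms4a6c was 19.2% and 19.7%, while Ms4a4c made up 0.532% and 3.67%. Ms4a6d made up 14.0% and 19.2%, and Ms4a7 11.7% and 16.8%. The family's transcripts were thus differently composed in the 2 libraries.

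Among themselves, the 7 members with at least 20 counts over both libraries formed 21 pairs, and the interval of the difference in log2 fold change excluded 0 in 15. Ms4a4c exceeded each of the other 6, by 2.27 (0.91 to 3.97) over Ms4a7, the closest. Ms4a7 and Ms4a6d exceeded Ms4a6c by 0.48 (0.06 to 0.90) and 0.42 (0.02 to 0.82). Ms4a6b was not separated from Ms4a6c (0.24, -0.18 to 0.66) or from Ms4a7 (Ms4a7 minus Ms4a6b 0.24, -0.22 to 0.70). Ms4a7 and Ms4a6d differed by 0.06 (-0.39 to 0.50). Ms4a8a was below Ms4a6b by a difference of 0.81 (0.02 to 1.58) and was not separated from Ms4a6c (0.56, -0.20 to 1.31) or from Ms4a2 (0.59, -0.42 to 1.60).

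Sequence likeness bears on how reads can be assigned. Coding sequences had 91.7% identical bases between Ms4a4b and Ms4a4c, 85.8% between Ms4a6b and Ms4a6c and 81.2% between Ms4a6b and Ms4a6d. Stretches of 76 bases, the read length, were nevertheless seldom shared: 3.66% of those of Ms4a4c, 1.19% of Ms4a2, 1.14% of Ms4a4b, 0.589% of Ms4a6b, 0.350% of Ms4a6d and 0 of Ms4a7 and Ms4a8a. Ms4a6c was different, with 53.1% of its exonic bases inside exons of BE692007, a transcript on the opposite strand that was not analysed here. The library kit does not mark strand, so reads from that region cannot be told apart, and the values of Ms4a6c are uncertain to that degree.

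The macrophage members were next set beside macrophage markers. All 12 markers of that list were measured, and they summed to 13337 counts (942 CPM) in Control and 25908 counts (2224 CPM) in Tension. Intervals lay above 0 for 11, below 0 for 0, and included 0 for Mertk (321 and 243 counts, -0.12, -0.37 to 0.12), an efferocytosis receptor. The list median was 1.34. Adgre1, which encodes F4/80, had 472 and 1148 counts (log2 fold change 1.56), Csf1r, the receptor for CSF1, had 1763 and 3216 (1.15), and Mrc1, which encodes CD206, had 1649 and 2613 (0.94).

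Per 1000 counts of those markers, Ms4a6c had 13.5 counts in each library, and its fold change minus that of the summed markers was -0.00 on the log2 scale (-0.27 to 0.27). Ms4a7 had 8.25 counts per 1000 in Control and 11.5 in Tension, a difference of 0.47 (0.15 to 0.81). Ms4a6d had 9.82 and 13.1, a difference of 0.42 (0.12 to 0.72). Ms4a7 and Ms4a6d were thus higher in Tension also relative to the summed macrophage markers, and Ms4a6b (0.24, -0.08 to 0.56) and Ms4a8a (-0.57, -1.26 to 0.15) were not separated from them. Ms4a4c exceeded them by 2.74 (1.45 to 4.41), with 0.375 and 2.51 counts per 1000.

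The result depended on the marker. Against Adgre1 alone, the differences of Ms4a7 (0.15), Ms4a6d (0.09) and Ms4a6b (-0.08) all had intervals that included 0, and those of Ms4a6c (-0.33, -0.64 to -0.02) and Ms4a8a (-0.89, -1.61 to -0.16) were below 0. Against Mrc1, Ms4a7 (0.77, 0.44 to 1.11), Ms4a6d (0.71, 0.40 to 1.03), Ms4a6b (0.53, 0.20 to 0.87) and Ms4a6c (0.29, 0.01 to 0.57) were above 0. Ms4a4c was above both. Its fold change was not separated from that of Ly6c2, a marker of classical monocytes with near-identical paralogs, which had 5 counts in Control and 36 in Tension (difference 0.85, -1.38 to 3.07). It exceeded that of Ccr2, another monocyte marker, by 2.74 (1.42 to 4.42).

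**Figure D3:**
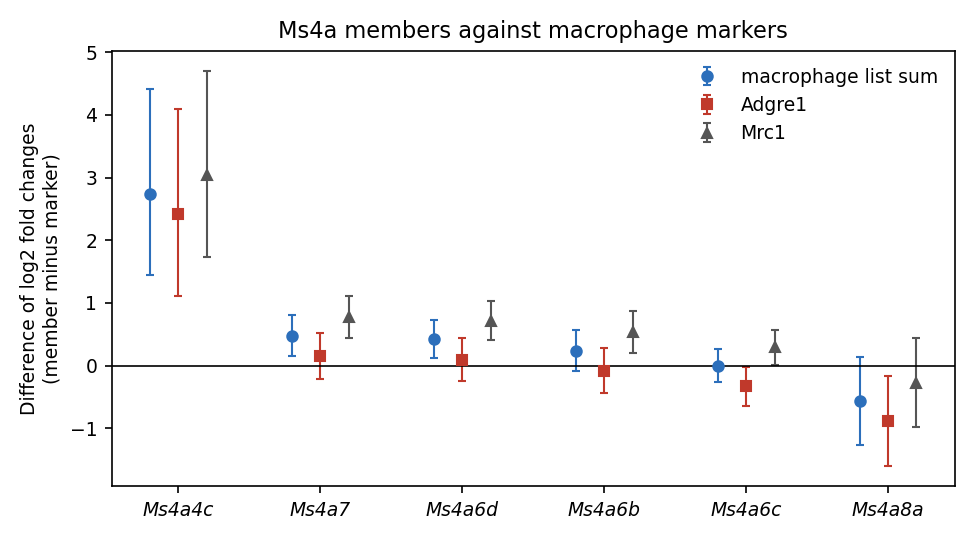
Difference in log2 fold change, member minus marker, for Ms4a members beside macrophage markers, with exact 95% intervals. A value of 0 means that member and marker differed between libraries by the same factor. Ms4a4c lay above 0 for the summed list, Adgre1 and Mrc1, Ms4a6c lay at -0.00 against the summed list, and Ms4a8a lay at -0.89 against Adgre1.

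All 8 markers of the monocyte list had intervals above 0, with a median of 2.73, the highest among the cell type lists. With 1 CPM added that median was 1.75. The list summed to 3319 counts in Control and 5113 in Tension, a log2 fold change of 0.90. The summed macrophage list gave 1.24 and the summed measured neutrophil genes 1.69. Plac8 had 113 counts in Control and 491 in Tension (log2 fold change 2.40, 2.1 to 2.71), Chil3 had 31 and 214 (3.07), Fcgr4 had 10 and 105 (3.67) and Ccr2, the CCL2 receptor, had 319 and 622 (1.24). F13a1, with the most counts of the list, had 2448 and 2846 (0.50, 0.42 to 0.58). Ms4a4c, at 3.98, differed in the same direction as these genes, and their part in its value was not tested.

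Genes of proteins reported to work beside MS4A proteins were measured for all 7 listed. Every interval lay above 0, as did those of 18.1% of all measured genes, and the list median was 1.58. Trem2, a lipid receptor of macrophages, had 13 counts in Control and 153 in Tension (3.84, 3.02 to 4.78). Tyrobp, its signalling adaptor DAP12, had 254 and 626 counts (1.58), and Clec7a, the beta-glucan receptor dectin-1, had 44 and 154 (2.09, 1.60 to 2.61). Tnfrsf18, which encodes GITR and partners Ms4a4b in T cells, had 240 counts in each library (0.28, 0.02 to 0.55). Orai1 was at 0.66, Cd40 at 1.81 and Cd81 at 0.44. The values of Trem2 and Clec7a were the largest of the list.

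Ms4a2 was set beside the other subunits of its receptor and the mast cell list. Fcer1g, the gamma chain that macrophages also express, had 364 counts in Control and 898 in Tension (1.58, 1.41 to 1.76). Fcer1a, the IgE-binding chain, had 5 and 17 counts (2.05, 0.55 to 3.84). The difference of Ms4a2 was -1.50 (-2.23 to -0.77) from Fcer1g and -1.96 (-3.89 to -0.26) from Fcer1a, so the 3 subunit genes did not share 1 fold change, on 22 counts in all for Fcer1a.

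Of the 9 mast cell markers, 8 had intervals above 0 and 1, Kit, lay below 0 (470 and 250 counts, -0.63), and the median was 0.65. They summed to 3866 counts in Control and 4581 in Tension, and Ms4a2 was not separated from the sum (-0.44, -1.15 to 0.26). Ms4a2 was below Hdc, the histamine-forming enzyme (-1.41, -2.18 to -0.63), and below Cma1, a chymase (-0.73, -1.46 to -0.02). It was also below Tpsab1 (-1.84, -3.37 to -0.41), which had 8 counts in Control and 25 in Tension, and below Fcer1a. Against the other markers it was not separated: Cpa3 (-0.28), Tpsb2 (-0.43), Mcpt4 (-0.51), Gata2 (-0.57) and Kit (0.71, -0.03 to 1.45). Kit is also expressed by melanocytes. Among 8 genes of IgE receptor signalling, 6 had intervals above 0, 0 below and 2 included 0, with a median of 0.64. Lcp2, an adaptor also used in macrophages, was at 1.58, Lyn at 1.14 and Fyn at 0.04.

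Other B cell genes were low as well as Ms4a1. Of its 8 genes, 5 were measured, the list summed to 29 counts in Control and 36 in Tension, Cr2 was at 0 in both, and 1 interval lay above 0, that of Cd22 (4 and 12 counts). The median was 0.45. For plasma cells, 4 genes were measured with a median of -0.37. The interval above 0 was that of Xbp1 (2577 and 2285 counts) and the interval below 0 that of Sdc1 (6906 and 4656 counts), genes that other skin cells also express, while Tnfrsf17 had 5 and 3 counts and Mzb1 6 and 2.

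Ms4a4b was not accompanied by the T cell list as a whole. Its 7 genes in the table summed to 172 counts in Control and 205 in Tension. Of the 6 measured, 1 interval lay above 0, that of Cd4 (15 and 56 counts, 2.18, 1.34 to 3.11), and 5 included 0, with a median of 0.25. Cd3e, part of the T cell receptor complex, had 27 and 24 counts (0.11) and Cd3g had 51 and 56 (0.42). For NK cells, 5 genes were measured, 2 intervals lay above 0, those of Ncr1 (0 and 5 counts) and Gzma (1 and 8 counts), which passed the limit of 3 counts only through Tension. The median of 0.96 was 0.24 with at least 20 counts over both libraries and 0.34 with 1 CPM added.

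The other lists place the members within the tissue. All 6 pan-leukocyte genes had intervals above 0 (median 1.4), with Ptprc, which encodes CD45, at 371 and 583 counts (0.93). Of 7 measured neutrophil genes 6 lay above 0 (median 1.90), and of 8 dendritic and Langerhans cell genes 5 did (median 0.67), and these include Retnlg (1 and 31 counts) and Ccr7 (3 and 29 counts), which were measured only through Tension and so were bound to be higher there. Of 6 keratinocyte genes 3 lay above and 2 below 0 (median 0.01), and all 6 fibroblast genes lay above 0 (median 0.24). Of 6 skeletal muscle genes 1 lay above and 5 below 0 (median -0.79). Of 7 myeloid transcription factors 3 lay above and 3 below 0 (median 0.03), and the largest values were those of Spi1, which encodes PU.1, with 180 and 393 counts (1.41, 1.15 to 1.67) and of Irf8 with 99 and 213 (1.39). Leukocyte, monocyte and neutrophil lists thus differed between the libraries together with the members, and their part in the members' values was not tested.

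**Figure D4:**
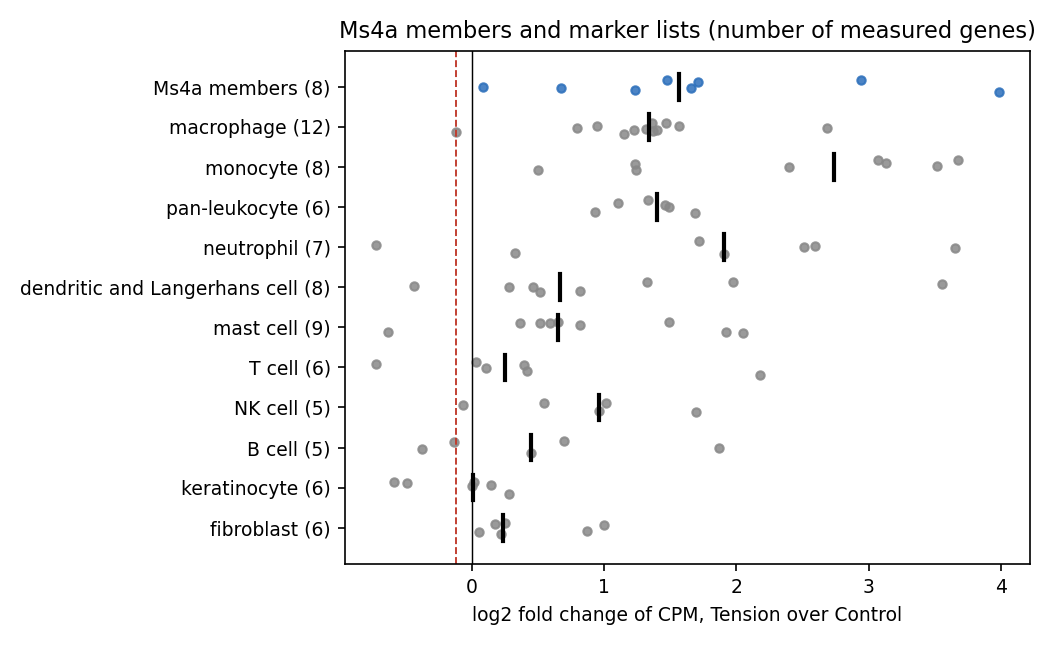
Log2 fold changes of CPM, Tension over Control, for the members and for each marker list, with 1 point per measured gene, the median of each list marked and the number of measured genes in brackets. The members' median was 1.57, or 1.48 over the members above 3 counts in both libraries, beside 1.34 for the macrophage list and 2.73 for the monocyte list, while the T cell list lay at 0.25 and the keratinocyte list at 0.01. With 1 CPM added, the median was 1.39 for the measured members, 1.26 for the macrophage list and 1.75 for the monocyte list.

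The cluster itself runs from chr19:10962293 to 11640851 on mm10, 679 kb that hold 21 annotated Ms4a genes. In chromosome order, Ms4a8a lies at chr19:11067471-11081102, Ms4a7 at chr19:11321039-11336146, Ms4a4c at chr19:11404770-11427246, Ms4a4b at chr19:11443553-11467055, Ms4a6c at chr19:11469366-11482192, Ms4a6b at chr19:11516512-11531256, Ms4a6d at chr19:11586604-11604849 and Ms4a2 at chr19:11615523-11623719. Ms4a7, Ms4a4c, Ms4a6c and Ms4a6b, whose intervals lay above 0 as did those of 18.1% of all measured genes, thus lie close together. Ms4a4b, measured only through Tension, Ms4a4a and Gm8369, with 0 and 1 counts, lie among them. Ms4a4d, with its smaller value of 0.42, lies between Ms4a6b and Ms4a6d. Ms4a2, at 0.08, lies next to Ms4a6d.

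Further Ms4a genes were at or near 0. Ms4a10 had 3 counts in Control and 0 in Tension, and Ms4a3, Ms4a5, Ms4a13, Ms4a15, Ms4a18 and the genes listed as 1700025F22Rik and 1700017D01Rik had 0 in both. Within 500 kb on either side and inside the cluster, 46 genes in the table were not Ms4a genes and 24 of them were measured. Of those, 6 intervals lay above 0 and 1 below, and the median was 0.06, beside 18.1% of all measured genes above 0 and 33.5% below. One of the 6, Cd6 (1 and 9 counts), was measured only through Tension. AW112010, inside the cluster, had 38 counts in Control and 50 in Tension (0.68, 0.04 to 1.32). Outside it, Slc15a3, a lysosomal histidine and peptide transporter of macrophages, had 46 and 123 counts (1.70, 1.20 to 2.22) at 496 kb from the start of Ms4a7.

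**Figure D5:**
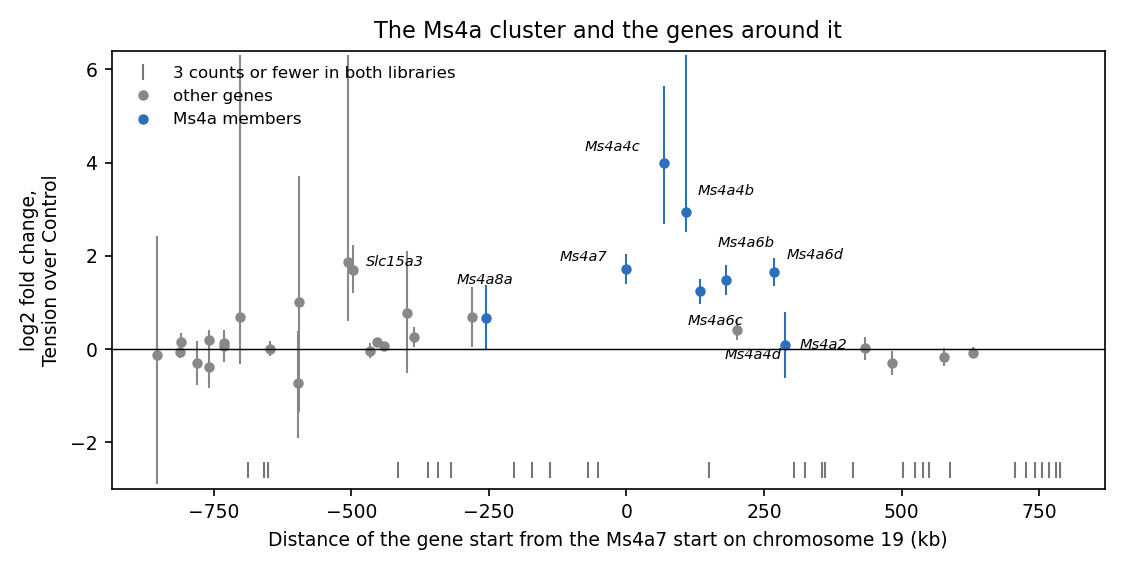
Log2 fold change, Tension over Control, of the genes in and around the Ms4a cluster against the distance of each gene's start from the start of Ms4a7 in kb, with 95% counting intervals that are cut off at the edges of the plot. Ticks near the bottom mark genes with 3 counts or fewer in both libraries. Ms4a4c (3.98) stood highest, the member Ms4a2 (0.08) and the further family gene Ms4a4d (0.42) lay low, and the other genes of the window had a median of 0.06.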

How the data were processed

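RNA was extracted from whole-layer skin with an RNAzol kit and made into TruSeq libraries, which do not mark strand. Per the study's methods, single-end reads were filtered with the FASTX-Toolkit, and per the submitters' processing notes TopHat2 and mm10 were used. The authors deposited whole-number counts per gene, not normalized, for 24421 symbols. The counter, its annotation and its handling of shared reads are not given in the sources used here.

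Exon lengths came from GENCODE M21, where 23384 symbols were found by name, 650 by a synonym and 387 not at all. CPM used the library total, and FPKM also the union exon length. Counts of 3 or fewer were set to 3 in fold changes, and no fold change was given when both were. Fold intervals are exact 95% Clopper-Pearson intervals of the Tension share, and differences between genes are conditional odds ratios with exact intervals. Reads without molecular identifiers are not independent molecules, so all intervals and limits cover counting error only. Genes were called with EV above 10 on FPKM + 1, a pseudocount the study does not state, and a fold change of at least 2. edgeR 4.0.16 and DESeq2 1.42.0 (R 4.3.3) supplied alternative scalings only, since 1 library per condition allows no test. The scripts were tested on simulated data.

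The text names all members, the other Ms4a genes and 2 relatives, genes of 19 lists, neighbours inside the cluster, and neighbours outside it whose interval lay past 2-fold with at least 100 counts. The members and lists were chosen with earlier results of these data known. The expression of Ms4a4a, Ms4a12 and Ms4a14 was not analysed here. Coding sequences were compared in place of proteins. Alternatives covered scaling, pseudocount, EV limit, unit, gene length and low-count limits.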

Additional observations from a re-analysis of the deposited data

How the results depend on the processing

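The 4 members called higher by the study's rule were called under every alternative scaling, with a pseudocount of 0.1 FPKM, with CPM in place of FPKM and with the longest transcript as length. Without a pseudocount the number was 2, and with EV above 100 it was 2, in each case Ms4a6c and Ms4a6d, because fewer members then pass the EV limit. Without an EV limit Ms4a4c was added, which made 5. Over all genes, 285 were called higher and 266 lower, or 51.7% higher, and 60.9% were higher with TMM, 61.4% with median of ratios and 60.8% with upper quartile scaling. These scalings raise every log2 fold change by 0.10, 0.11 and 0.10, and leaving out the 50 genes with the most counts by 0.06, so the interval of Ms4a8a, which starts at -0.02, then lies above 0. The members' median ranged from 1.39 to 1.68 over all alternatives. Single members' values stayed within their intervals in 32 of 32 cases under other scalings. This outcome was fixed in advance, since shifts of 0.06 to 0.11 are smaller than the reach of each interval above its value. With 1 CPM added, 6 of 8 stayed within their intervals, and Ms4a4b came to 1.4 and Ms4a4c to 2.28. A list median was taken as moved when it left the interval of its middle gene, or the mean limits of its 2 middle genes. Those limits are narrow where the middle genes have many counts. Of 76 list medians under other scalings 18 moved, and of 37 under other settings 2 did, the monocyte list to 1.75 and the receptor subunits to 0.86, and 0 reversed. The median over members above 3 counts in both libraries was chosen after seeing the data. No paired analysis was possible because each condition had 1 library, and no library could be left out. Depth limits Ms4a1, Ms4a4b, Ms4a4c, Ms4a2 and Ms4a8a most.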

Other observations

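Tmem176a and Tmem176b, 4-segment membrane proteins related to the MS4A family and encoded on another chromosome, were both higher in Tension. Tmem176a had 283 counts in Control and 408 in Tension (log2 fold change 0.81, 0.59 to 1.03), and Tmem176b had 798 and 1146 (0.80, 0.67 to 0.94). Neither was called by the study's rule.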
